A study of Mus musculus with 2 samples.

Results

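Conventional dendritic cells were taken as the cells that held at least 2 UMIs (unique transcript molecules) of Flt3, Cd209a, Xcr1 and Clec9a together, no UMI of Ccr7, Cd79a or the Cd3 genes, and at most 5 UMIs of the C1q genes. The members were thus chosen by measured UMI counts of these genes, and the rule was met by 60 of 2806 cells, 20 of 1806 in the normal library and 40 of 1000 in the tumor library. The samples were 2 single-cell RNA libraries (10x Genomics, 3' ends), 1 per group, from female C57BL6/J mice aged 8 weeks that carried Cdh5Cre-ERT2:ZSGreenl/s/l, in which tamoxifen switches on the green reporter ZSGreen through the endothelial Cdh5 promoter. All mice received tamoxifen, and EO771 cells, a mouse mammary tumor line syngeneic to that strain, were placed in the mammary fat pad at 1e+06 cells. After about 3 weeks live ZSGreen+ cells were sorted from the tumors (the TEC library) and from the normal counterpart mammary glands (the NEC library). The labels name no further treatment. The labels used here do not say how many mice were pooled or whether the normal glands came from the tumor-bearing animals. The labels set endothelial cells of tumors against normal ones.

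Dendritic cells take up antigen, process it and display it to T cells on MHC class II. Conventional dendritic cells depend on the growth factor receptor Flt3 and fall into a pair of lineages. The cDC1 lineage, marked by the chemokine receptor Xcr1 and by Clec9a, a receptor for dead cells, relies on the transcription factors Irf8 and Batf3 and is known for cross-presentation to CD8 T cells. The cDC2 lineage, of which many cells carry the lectin Cd209a, is better known for presentation to CD4 T cells and is harder to separate from monocyte-derived cells.

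Both libraries carry an endothelial label, and the members went against it. Cdh5, whose promoter drives the sort reporter, was at 0 UMIs in all 60 members. A list of 12 measured endothelial genes summed to 41.0 CPM (UMIs scaled to a total of 1e+06) in the NEC members, with 10 of the 12 at 0, and to 50.9 CPM in the TEC members, with 8 of the 12 at 0. How these cells came through the sort was not tested. The NEC library held 5228289 UMIs and the TEC library 16444540, with the shallowest cell at 1157 and 6376 UMIs. Members had a median of 6557 UMIs in NEC (1546 to 13288) and 9806 in TEC (6493 to 27452). They held 121902 and 412838 UMIs in all. The libraries share 2 cell barcodes, and no member has one of them. With 1 library per group there is no replicate check, no test and no p-value, and a difference between libraries cannot be told apart from a difference between groups. Intervals are 95% intervals for counting error only.

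The rule decided which genes mark these cells, so the levels of its genes only describe the selection. Cd209a was present in 19 of the 20 NEC members and in 26 of the 40 TEC members. In the NEC cells that held it, Cd209a ran from 1 to 11 UMIs per cell with a median of 3, and in the TEC cells from 1 to 56 with a median of 6.5. Flt3 was caught in 4 NEC and 19 TEC members, at no more than 3 UMIs. Background for these genes was taken from T cells, where Cd209a had a UMI in 5.11% of TEC cells (median depth 9857 UMIs) and 0.180% of NEC cells (3021 UMIs), and Xcr1 in 0.730% of TEC cells. In the GRCm38 mouse genome Cd209a lies on chromosome 8 (3743395 to 3748984), Xcr1 on chromosome 9 (123852315 to 123862029), Clec9a on chromosome 6 (129408862 to 129424764) and Flt3 on chromosome 5 (147330741 to 147400489). A rule sum of exactly 2 UMIs, just inside the threshold, was seen in 5 NEC and 11 TEC members, and 12 NEC and 21 TEC cells with a sum of exactly 1 met every other condition and stayed outside. Among cells with a sum of 2 or more, Ccr7, the homing receptor of mature dendritic cells, removed 4 in NEC and 22 in TEC, of which 1 and 16 met every other condition.

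Members were 1.11% of the NEC library (0.678 to 1.71) and 4.0% of the TEC library (2.87 to 5.41). The tumor library held only cells of 6376 UMIs or more, and the part of depth in the difference in shares was not tested. Among cells with at least 4000 UMIs, members were 13 of 347 in NEC, or 3.75% (2.01 to 6.32), and still 40 of 1000 in TEC. When every cell was thinned to 1000 UMIs and the rule asked for at least 1 UMI of its genes, 1.11% of NEC and 2.90% of TEC cells met it.

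The 2 kinds of rule gene split the members without overlap. In TEC, 13 members held Xcr1 or Clec9a and no Cd209a, 32.5% of the members (18.6 to 49.1), and 26 held Cd209a and neither of the others, 65.0% (48.3 to 79.4). In NEC, all members with a UMI of these 3 genes were Cd209a cells. Xcr1 and Clec9a are both listed at 0 for the whole NEC library, so the NEC count of 0 Xcr1 or Clec9a cells gives no fold and no upper limit. In TEC, Xcr1 was found in 17 cells and Clec9a in 14, and 12 of the 25 cells with either were not members: 7 held Ccr7 and 8 had a sum under 2. One member in each library held neither gene group. These 2 cells qualified on Flt3 alone and held 9 and 15 UMIs of Siglech, a lectin of plasmacytoid dendritic cells, which goes against the name given to the group. Another member with Siglech, a NEC Cd209a cell with 3 UMIs of it, held 19 UMIs of Bst2, a protein abundant in plasmacytoid cells, 2 of Flt3 and 1 of Cd209a.

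The name was checked on marker genes that the rule did not use. Zbtb46, a transcription factor of conventional dendritic cells, stood at 32.8 CPM in NEC members and 24.2 in TEC members, against 1.03 and 1.90 CPM in the macrophages of the same libraries, taken as non-members with at least 10 UMIs of the lysozyme gene Lyz2 (232 NEC and 555 TEC cells). Bcl11a, a regulator of plasmacytoid and other dendritic development, stood at 98.4 and 33.9 CPM against 2.06 and 1.35, and at 65.4 CPM in NEC without the members that held Siglech. Dpp4 and Kit, surface proteins found on conventional dendritic cells among others, were also above macrophages in both libraries. Itgax, which encodes CD11c, stood at 49.2 and 84.8 CPM against 22.7 and 34.0. These genes are sparse: Zbtb46 had 4 UMIs in all NEC members and 10 in all TEC members. The 4 more abundant genes of the conventional dendritic list did not set the NEC members apart from macrophages, with ratios of 0.88 for Cst3, 1.00 for Cd24a, 1.18 for H2-Ab1 and 1.32 for Cd74. Cd74, the invariant chain of MHC class II, was abundant, at 13765 CPM in NEC members and 13962 in TEC members. T cells, which should lack it, held 301 CPM in NEC and 1684 CPM in TEC.

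Some members went against the name. A total of 3 NEC Cd209a cells had 0 UMIs of H2-Ab1, with 0, 4 and 7 UMIs of Cd74, and the cell with 4 was the one with Siglech. Of the 19 NEC Cd209a cells, 5 held 61 to 153 UMIs of Lyz2 and the other 14 held 0 to 5. The 5 cells had 0 UMIs of Flt3 and of Zbtb46. They held 21801 CPM of Retnla, a secreted protein of alternatively activated macrophages, against 608 CPM in the other 14 and 21340 CPM in NEC macrophages. Csf1r, the macrophage growth factor receptor, was at 118 CPM in the 5 and 13.8 in the 14, and Cd209d, a related lectin gene near Cd209a on chromosome 8 (3871824 to 3878548), at 70.6 and 705 CPM. How reads of such related genes were divided is not given in the sources used here. In TEC, 5 of 26 Cd209a cells held 12 to 88 UMIs of Lyz2, and 2 of 13 Xcr1 or Clec9a cells held 12 to 33. These cells meet the rule and were kept. Csf1r, which is also on the cDC2 list, did not set the 5 TEC Cd209a cells as far apart. It was at 128 CPM in them and 80.7 CPM in the other 21, of which 12 held it. Of those 21 cells 7 held Flt3, 3 held Zbtb46 and 0 held Adgre1, a gene of the macrophage list. T and NK cell genes summed to 238 and 395 CPM in NEC and TEC members, and B or plasma cell genes to 41.0 and 2.42 CPM. Rhox5, from the marker list for EO771 or other CD45-low cells, was in 3 TEC members at 1, 1 and 5 UMIs. No member was called a doublet by Scrublet, which called 7 NEC and 3 TEC cells.

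**Figure D1:**
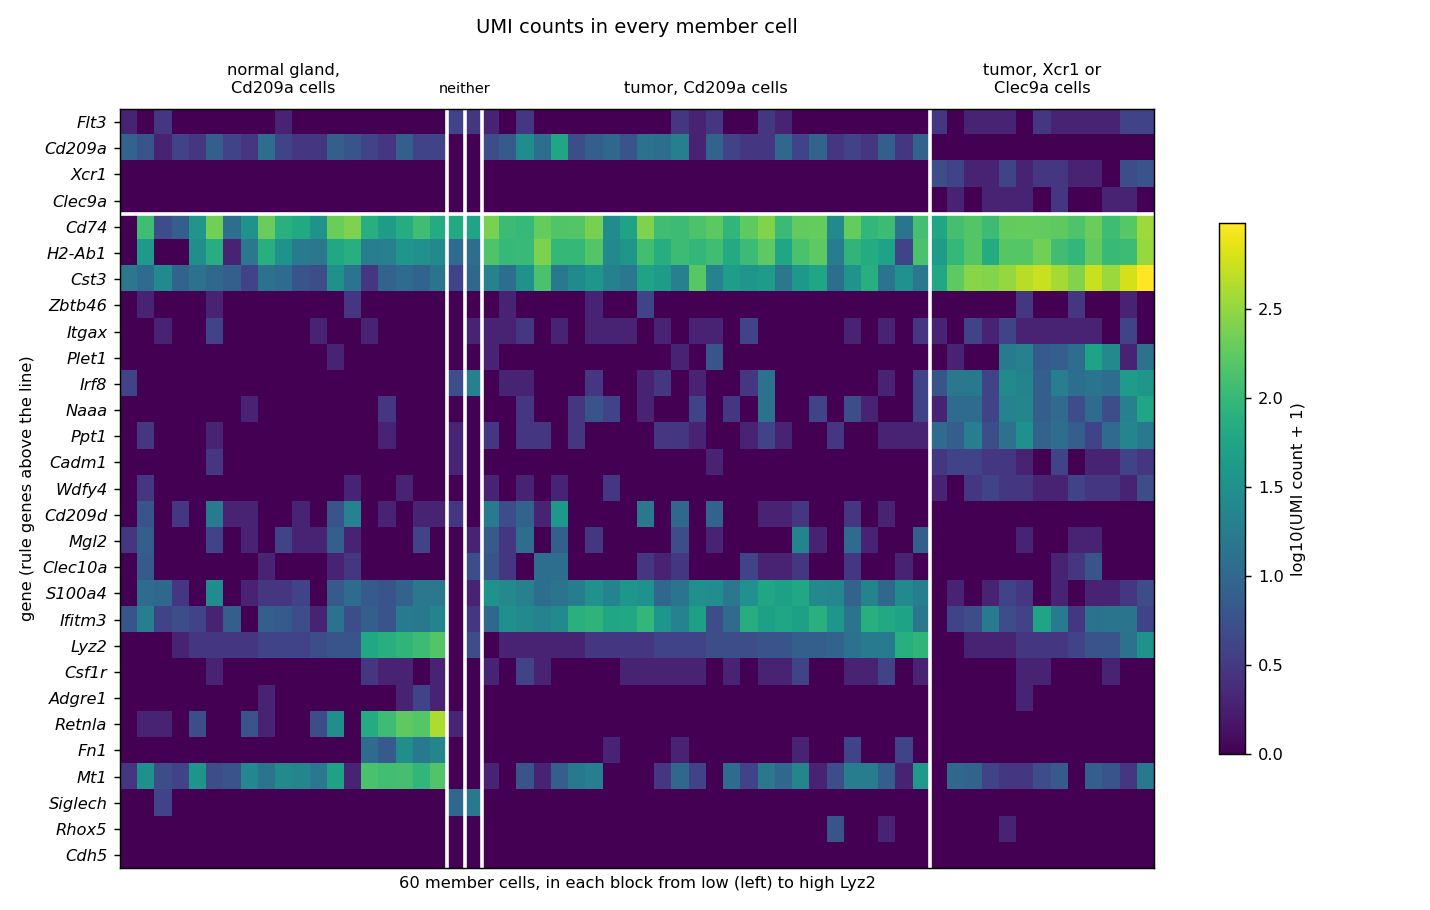
UMI counts on a log10 scale (colour) of 29 genes (rows) in each of the 60 members (columns), in blocks by library and by the rule genes held; in each block Lyz2 increases to the right. The 13 Xcr1 or Clec9a cells carry Irf8, Naaa, Ppt1 and high Cst3, while 5 NEC Cd209a cells at the right of their block carry Lyz2, Retnla and Fn1; Retnla, Xcr1 and Clec9a are each listed at 0 for a whole library.

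Within the tumor, Xcr1 or Clec9a cells and Cd209a cells differed in a set of genes that the split did not use. A gene was called higher or lower when its CPM ratio over summed cells was at least 2 either way, its interval excluded 1, and it had at least 50 UMIs over both sums. A gene low in one group can reach this minimum through the other alone, so counts and medians over listed genes describe the genes compared and are no support for a direction. This size rule was met upward by 42 of 966 genes (4.35%) and downward by 121 (12.5%). The median of all compared genes was -0.15 on the log2 scale. With TMM scaling in place of totals the split was 50 and 111. Both sums come from 1 library, and cells of 1 library are not replicates.

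Irf8, the transcription factor that cDC1 need, was found in all 13 Xcr1 or Clec9a cells, at 3 to 44 UMIs with a median of 14, and in 38.5% of Cd209a cells at 0 to 12 UMIs. Its measured level was 1406 CPM against 106, a ratio of 13.3 (8.82 to 20.7). The 106 CPM of the Cd209a cells was below the 230 CPM found in TEC T cells and the 141 CPM in TEC macrophages. Whether this level is their own expression was not tested. Plet1, a surface protein found on some dendritic and epithelial cells, had the highest lower bound. It was at 931 CPM against 28.5, a ratio of 32.6 (15.4 to 82.6), with a UMI in 76.9% against 11.5% of cells. Cst3, which encodes the protease inhibitor cystatin C, ran from 60 to 955 UMIs per Xcr1 or Clec9a cell (median 340) and from 11 to 161 (median 31.5) per Cd209a cell. The lowest and highest values overlapped, and the ratio of the sums was 7.90 (7.38 to 8.46).

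The enzymes Naaa, which breaks down fatty acid amides, and Ppt1, a lysosomal thioesterase, were higher in the Xcr1 or Clec9a cells at ratios of 6.54 (4.63 to 9.43) and 10.5 (6.73 to 17.0). Both were found in all 13 cells. Id2, a helix-loop-helix regulator needed by cDC1, was at 744 against 155 CPM, and Cd24a, a surface glycoprotein, at 650 against 167 CPM. Gusb, a lysosomal glucuronidase, Sept6, a septin, and Actb, beta actin, were higher at ratios of 4.27, 4.60 and 2.74. Of the cDC1 list, 4 of 4 genes with enough counts were higher (Irf8, Naaa, Ppt1 and Id2). The remaining cDC1 genes were too sparse for the rule and are given as counts. Cadm1, an adhesion molecule, had 23 UMIs in the 13 cells and 1 in the 26, Wdfy4, needed for cross-presentation, 24 and 5, Itgae, the integrin CD103, 19 and 0, and Cd8a 20 and 1. Batf3 had 12 and 3. Counted per cell, a median of 8 of the 13 cDC1 genes outside the rule (6 to 13) had a UMI in Xcr1 or Clec9a cells, against 3 (1 to 5) in TEC and 1 (0 to 3) in NEC Cd209a cells. The ranges for the tumor subsets did not overlap, at median depths of 11395 and 9421.5 UMIs.

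The lower genes were led by Cd209d, at 0 UMIs in the 13 cells against 105 UMIs, or 428 CPM, in the Cd209a cells. It was found in 50% of the Cd209a cells, and 1 cell held 36.2% of its UMIs. That cell also held 56 UMIs of the related gene Cd209a, which the split used. By the bound of its interval Cd209d was at least 18.2-fold lower. S100a4, a calcium-binding protein, was at 100 against 2671 CPM, 26.7-fold lower (16.3 to 47.0). It was present at 8 to 60 UMIs in every Cd209a cell and at 0 to 4 in the others, so the subsets did not overlap. Its relative S100a6 was 5.66-fold lower (4.81 to 6.69). The actin-capping protein Capg, the secreted Wfdc17, the membrane proteins Ms4a4c and Ms4a6b and Mgl2, a galactose lectin, were each more than 10-fold lower. Clec4n, the fungal receptor dectin-2, was at 31.3 against 367 CPM, and Fcer1g, the signaling chain of Fc receptors, at 256 against 2035 CPM. TEC T cells held 938 CPM of S100a4 and 1217 CPM of Fcer1g, both above the levels in the Xcr1 or Clec9a cells. Of the cDC2 list, 4 of 6 genes compared were lower (Mgl2, Clec10a, Cd300a, and Cd209a, which the split used), with a median log2 ratio of -1.79. Csf1r and the others were too sparse or did not meet the rule.

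**Figure D2:**
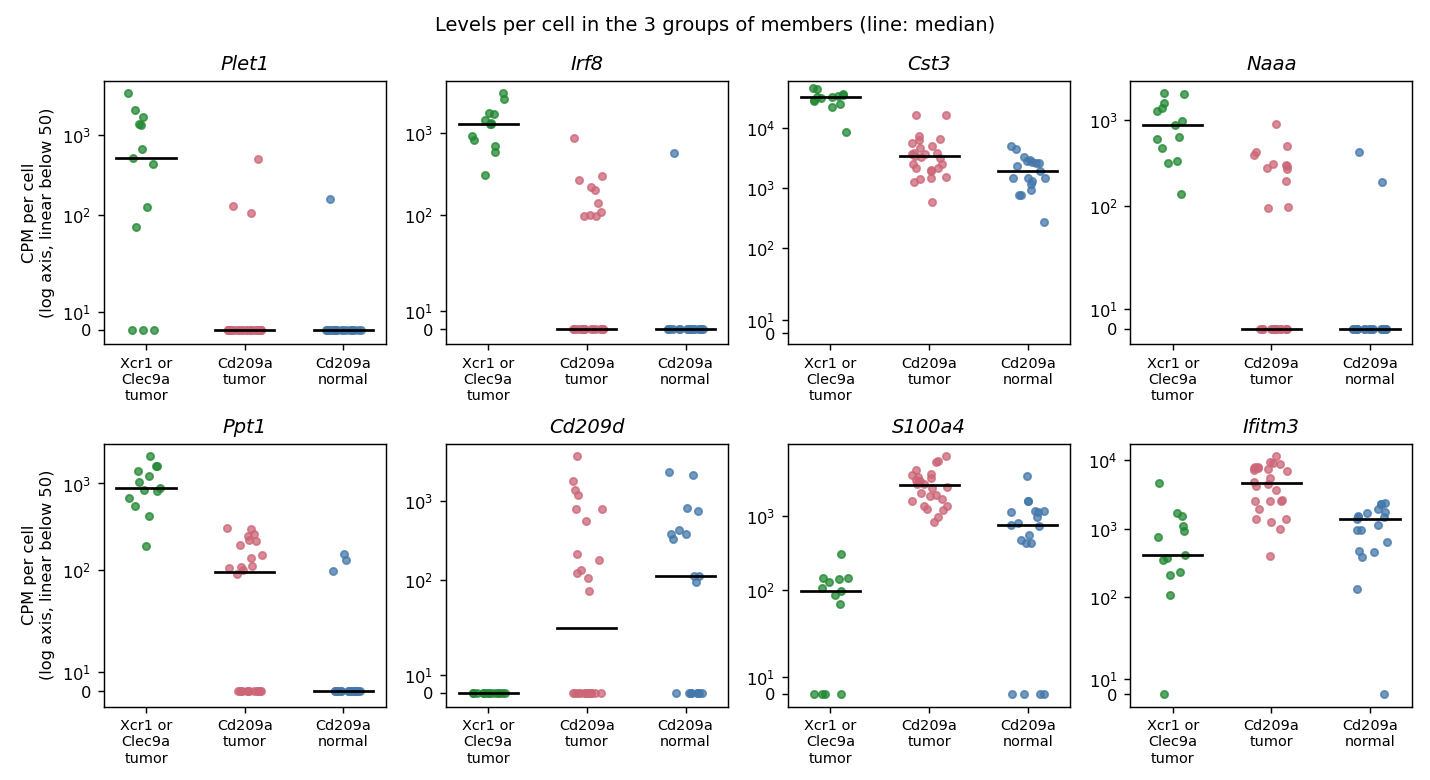
CPM per cell (log axis, linear below 50; points are cells and lines medians) of 8 genes in the 13 tumor Xcr1 or Clec9a cells, the 26 tumor Cd209a cells and the 19 normal Cd209a cells. Irf8, Cst3, Naaa and Ppt1 are high in the first group, while Cd209d is at 0 and S100a4 low in it.

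Class II chains were at similar levels in these subsets. The ratio of H2-Aa, H2-Ab1, H2-Eb1 and Cd74 lay between 0.91 and 1.14, and of 10 class II route genes compared none was higher and 3 were lower: the protease genes Ctss and Lgmn and the thiol reductase gene Ifi30, with ratios of 0.38, 0.27 and 0.27. Interferon response genes were lower in 7 of 12 compared, with a median log2 ratio of -1.23 and none higher. Ifitm3, an antiviral membrane protein, was at 894 against 4710 CPM (ratio 0.19), and 37.8% of the lower sum came from 1 cell. Without cells that held 10 or more UMIs of Lyz2, 4 of 10 were lower and the median was -0.75. Irf7 and Isg15, inducible by type I interferon, did not meet the rule, at 519 against 428 CPM and 319 against 404 CPM, with 84.3% of the first group's Isg15 in 1 cell. A single deep cell held 90.1% of the Klf2 and 96.6% of the Hspa1a UMIs of the Xcr1 or Clec9a cells. Their ratios of 5.53 and 5.33 turned to log2 values of -0.30 and -2.29 without the deepest cell of each group. Ccl4, a chemokine, had a ratio of 2.10, with 85.4% of the UMIs in 1 cell, and was lower, at a log2 ratio of -1.53, without the deepest cell of each group.

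The tumor and the normal gland were set side by side in Cd209a cells, the subset present in both libraries (26 and 19 cells, 245211 and 114860 UMIs). The size rule was met upward by 179 of 871 genes (20.6%) and downward by 55 (6.31%), with a median log2 ratio of 0.33 over all genes compared. TMM scaling moved that median to 0.07 and the split to 114 and 76. The ratios here are those of the totals, and a call that TMM ends is named.

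Several genes of the interferon response were measured at higher levels in the tumor cells. Of 36 genes on the list 10 had enough counts. Irf7, Isg15, Rsad2 and Zbp1 reached the minimum through the tumor sum, and at their NEC level would not have been compared. Of the others, Ifitm1, Ifitm2, Ifitm3 and Ifi27l2a were higher, while Bst2 and Slfn2 did not meet the rule, at ratios of 1.35 and 1.13. Irf7, the transcription factor that amplifies type I interferon, had 1 UMI in the 19 NEC cells and 0 to 22 UMIs per cell in TEC, where 61.5% of cells held it. Its level was 428 against 8.71 CPM, a ratio of 49.2 (8.64 to 1961). Isg15, a ubiquitin-like protein, was at 404 against 17.4 CPM, a ratio of 23.2 (6.25 to 194). Zbp1, a nucleic acid sensor, and Rsad2, an antiviral enzyme, had 0 UMIs in NEC and were at least 6.12-fold and 7.26-fold higher. However, 1 cell held 47.5% of Rsad2, and both genes had too few UMIs to compare without the Lyz2-rich cells. Ifitm1, Ifitm2 and Ifitm3, antiviral membrane proteins of 1 family, were higher at ratios of 5.81, 3.01 and 3.89. Ifitm3 ran from 4 to 93 UMIs per TEC cell (median 48.5) and from 0 to 21 in NEC (median 5). Ifi27l2a was higher at 2.12, which TMM scaling ended (1.77).

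These genes were high in other tumor cells too. Irf7 was at 783 CPM in TEC macrophages and 475 CPM in TEC T cells, with a UMI in 81.8% of the latter, against 38.1 and 45.4 CPM in NEC macrophages and T cells. Isg15 was at 1152 CPM in TEC macrophages and 711 CPM in TEC T cells. For these genes the TEC Cd209a cells were below both groups, while for Ifitm3 their 4710 CPM was above the 3307 CPM of TEC macrophages and 1781 CPM of TEC T cells. TEC T cells also held Lyz2 in 86.9% of cells against 8.63% in NEC, and many of them are also in the macrophage set. As for the Irf8 level above, whether the Irf7 and Isg15 levels of the tumor Cd209a cells are their own expression was not tested. The ratios compare measured levels only. The part of transcripts from other cells was not tested. In Cd209a cells with Lyz2 under 10 UMIs, Ifitm1, Ifitm2 and Ifitm3 were still higher, at ratios of 3.51, 2.16 and 4.58.

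Of 16 genes on the list of those induced by interferon gamma, 3 had enough counts. All 3 reached the minimum through the tumor sum, and all 3 were higher. These were the GTPase Gbp2 and the chemokines Cxcl9 and Cxcl10, with ratios of 6.56, 6.32 and 6.87, but 1 TEC cell held 51.4%, 63.0% and 79.5% of their UMIs. Ly6a, a membrane protein inducible by interferon, was at 1048 against 78.4 CPM (ratio 13.4, 6.94 to 29.6). Further genes with a high lower bound were Clec4n (14.1), Klrd1, the lectin CD94 (9.65), the decoy receptor gene Il1r2 (7.96), Ddt, a tautomerase (24.4), Ccl4 (15.2) and Ms4a6b (at least 7.01-fold). Ly6a and these further genes had 0 to 9 UMIs in NEC and also reached the minimum through the tumor sum. Klrd1 was present in 73.1% of TEC and 15.8% of NEC Cd209a cells. Il1b, the inflammatory cytokine, was at 1574 against 540 CPM.

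Class II genes were abundant in the Cd209a cells of both libraries. Cd74 hardly differed, at 14604 CPM in TEC and 14034 in NEC. H2-Ab1 ran from 3 to 243 UMIs per TEC cell and from 0 to 74 per NEC cell. It was at 10477 against 4815 CPM, a ratio of 2.18 (1.98 to 2.39), which was under 2 with TMM scaling (log2 0.86) and without the Lyz2-rich cells (log2 0.94). H2-Aa and H2-Eb1 had ratios of 1.60 and 1.51. H2-DMb1, a chain of the H2-DM peptide-loading protein, and the protease gene Ctss met the rule under both settings, with main ratios of 2.48 and 3.01. In all, 4 of 10 class II route genes were higher and none lower, with a median of 0.63, and 2 of 10 under TMM. Of class I genes 4 of 10 were higher (H2-K1, B2m, Psmb8 and Psmb9, median 0.88), of which TMM left 1 and the cells with Lyz2 under 10 UMIs 1 of 8. Of 17 costimulation and checkpoint genes measured only 2 had enough counts, and neither was called: Cd86 was at 232 against 131 CPM and Cd83 at 518 against 383.

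Glycolysis and hypoxia genes were higher in 6 of 10 compared, and 6 of 10 under TMM. They were Aldoa, Tpi1, Pgam1, Pkm and Ldha, enzymes of the pathway with ratios of 3.13 to 6.25, and Mif, a cytokine of the list (6.67). All the enzymes were found in at least 88.5% of TEC cells, against 21.1% to 68.4% of NEC cells. The rise was not particular to Cd209a cells: in macrophages 15 of 22 genes of this list were higher in TEC and 1 lower. The list summed to 7247 CPM in TEC and 3317 CPM in NEC Cd209a cells, and to 11873 and 3815 CPM in TEC and NEC macrophages. The galectin genes Lgals1 and Lgals3 were higher at 2.97 and 2.37, the latter ended by TMM (1.98). Of 17 immediate early genes compared, which dissociation can also raise, 6 were higher, among them Jun (4.33), Btg2 (3.66) and Socs3 (4.84), and 3 under TMM. The part of cell handling in this was not tested. Depth differed too, with a median of 6177 UMIs per NEC and 9421.5 per TEC Cd209a cell.

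**Figure D3:**
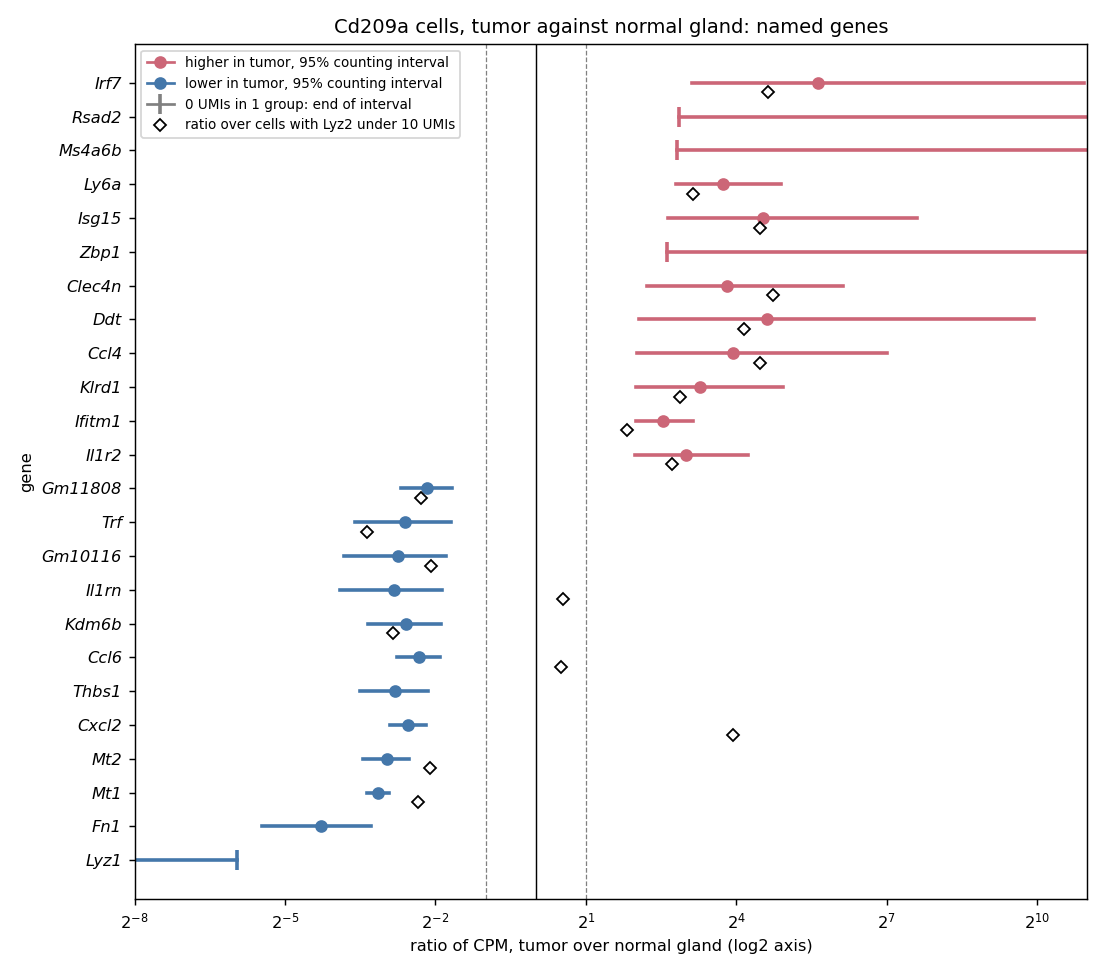
CPM ratio of tumor over normal Cd209a cells (log2 axis) for the 24 genes with the most extreme interval bounds; bars are 95% counting intervals, cut at the edges of the plot, and open diamonds the ratios over cells with Lyz2 under 10 UMIs, drawn also under the 50-UMI minimum and left out where a sum is 0. The diamonds drawn for the higher genes lie right of the dashed line at 2, while those of Cxcl2, Ccl6 and Il1rn cross 1.

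Among the 55 lower genes, those ranked first were looked at with and without the 5 Lyz2-rich NEC cells. Many followed these cells. Lyz1 is a lysozyme gene whose reads can be hard to part from those of Lyz2. It had 109 UMIs in NEC, all 109 in those 5 cells, and 0 in TEC (at least 62.0-fold lower). The same cells held all UMIs of the matrix protein Fn1 and of Thbs1, 99.6% of the neutrophil chemokine Cxcl2, 97.5% of Il1rn, the interleukin-1 receptor antagonist, and 95.4% of the chemokine Ccl6. Without Lyz2-rich cells none of these reached the 50-UMI minimum in Cd209a cells. Cxcl2 then had 42 UMIs in TEC and 1 in NEC, Il1rn 4 and 1, Ccl6 27 and 7, Thbs1 10 and 0, Fn1 3 and 0, and Lyz1 0 and 0. Over all members with Lyz2 under 10 UMIs, Cxcl2 had 50 UMIs in TEC and 1 in NEC, a ratio of 12.2 (2.10 to 493). It reached the minimum through the tumor sum, so this ratio is no support for a direction. Retnla was at 8445 CPM in NEC Cd209a cells, 95.5% of it in the 5 cells, and is listed at 0 for the whole TEC library. It was also at 222 CPM in NEC T cells and 677 CPM in NEC B cells.

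Mt1, Mt2, Kdm6b and the predicted gene Gm11808 were lower without those cells as well. Mt1 and Mt2, the metallothioneins, bind zinc and copper and respond to metals and glucocorticoids. Mt1 ran from 1 to 149 UMIs per NEC cell (median 23) and from 0 to 39 per TEC cell (median 4.5), at 7374 against 836 CPM, 8.82-fold lower in the tumor cells (7.56 to 10.3). Mt2 was 7.87-fold lower (5.80 to 10.8). The Lyz2-rich cells held 72.8% of the NEC Mt1 UMIs, and without them the log2 ratio of Mt1 was -2.34 and that of Mt2 -2.11. NEC macrophages held 7938 CPM of Mt1 and TEC macrophages 1238 CPM. Kdm6b, a histone H3 lysine 27 demethylase, was 6.03-fold lower (3.70 to 10.2), with a log2 ratio of -2.85 without the Lyz2-rich cells. Gm11808 was 4.49-fold lower (3.16 to 6.44), and 4.86-fold without them. Trf, transferrin, had 40 UMIs in NEC, 6 of them in those cells, and 14 in TEC. Without the Lyz2-rich cells it had 34 and 9, too few to compare. Gm10116 had 38 UMIs in NEC, 24 of them in those cells, and 12 in TEC, and without them 14 and 9, again too few.

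**Figure D4:**
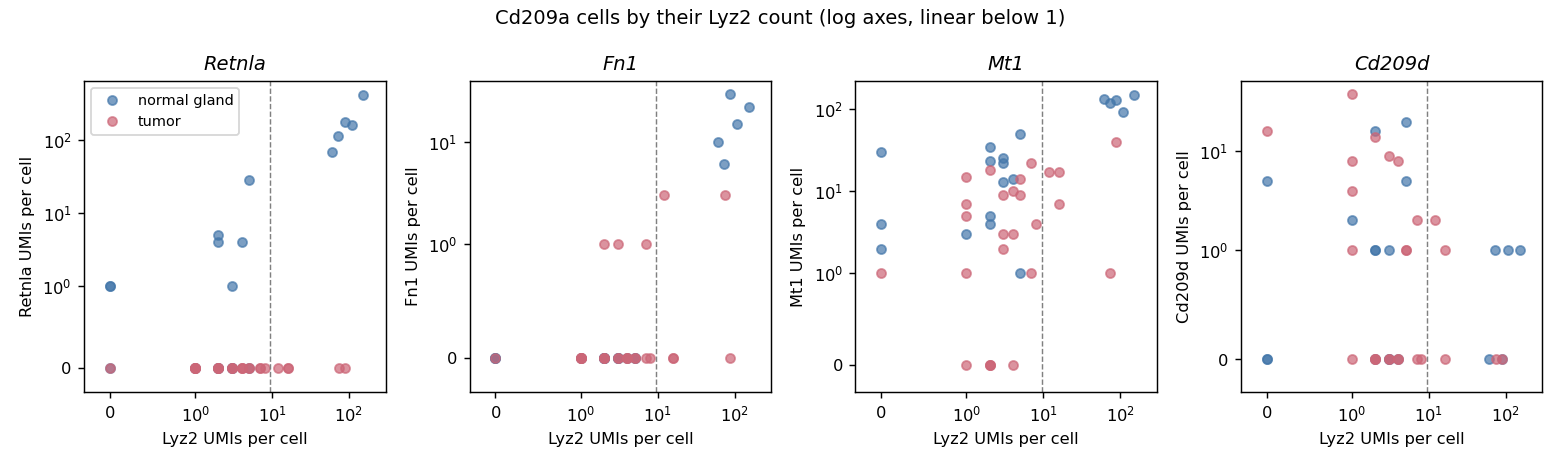
UMIs per cell of Retnla, Fn1, Mt1 and Cd209d against UMIs of Lyz2 in the 19 normal and 26 tumor Cd209a cells (log axes, linear below 1; dashed line between 9 and 10 UMIs). The 5 normal cells right of the line hold the most Retnla, Fn1 and Mt1 and at most 1 UMI of Cd209d; Retnla is listed at 0 for the tumor library.

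Over all members, 221 of 1211 genes (18.2%) were higher in TEC and 85 (7.02%) lower. The median log2 ratio of all genes compared was 0.27. With TMM scaling the split was 166 and 118 and the median 0.07. The TEC sum holds the 13 Xcr1 or Clec9a cells and the NEC sum none. Plet1 (46.1), Cst3 (8.88), Naaa (21.3) and Irf8 (11.4) were among the 12 genes with the highest lower bound. In Cd209a cells alone the ratio of Cst3 was 2.32, which TMM scaling and the exclusion of Lyz2-rich cells each brought under 2 (1.94 and 1.89). Plet1 and Naaa had 7 and 41 UMIs in TEC and 1 and 3 in NEC Cd209a cells, too few to compare. Of 12 glycolysis and hypoxia genes compared 7 were higher and 1 lower, the hexokinase gene Hk2, at 8.04-fold. The 5 Lyz2-rich NEC cells held 63.2% of the NEC Hk2 UMIs. In members with Lyz2 under 10 UMIs Hk2 had 12 UMIs in TEC and 14 in NEC, too few to compare, and 6 of 10 listed genes were higher and 0 lower. Hmox1, heme oxygenase, was 5.70-fold lower over all members, and the same 5 cells held 90.6% of its UMIs in NEC Cd209a cells. It had 13 and 6 UMIs in members with Lyz2 under 10 UMIs.

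Members were last set against the Lyz2 macrophages of their own library. Lyz2 and C1q are part of how these groups were chosen, and their difference is not a result. In NEC, 69 of 2139 genes (3.23%) were higher in members and 230 (10.8%) lower, and the median gene had a log2 ratio of -0.12. TMM scaling gave 85 and 194. Cd209d was at 459 against 41.2 CPM, a ratio of 11.2 (7.30 to 17.2). Of the conventional dendritic list 0 of 4 genes compared were higher and 0 lower. Of the cDC1 list 0 of 5 were higher and 1, Naaa, was lower. Of the cDC2 list 2 of 11 were higher (Il1b and the rule gene Cd209a) and 4 lower (Clec4a2, Klf4, Notch2 and Csf1r). All 3 plasmacytoid genes compared were higher, and the list summed to 1501 against 154 CPM. Bst2, the membrane protein tetherin, was at 664 against 98.8 CPM (ratio 6.72), and Tcf4, a transcription factor of plasmacytoid and some conventional dendritic cells, at 180 against 32.9 CPM. Ly6d had a ratio of 50.1 that came from 1 cell, one of those with Siglech. Without the 2 NEC members that held Siglech, an alternative chosen after seeing the data, the plasmacytoid list summed to 467 CPM, Bst2 was at 308 CPM (ratio 3.12), and Tcf4 (12 and 32 UMIs) and Ly6d (0 and 7) were too few to compare. The split of all genes was then 52 and 218. Pkib, a protein kinase A inhibitor, Gcnt2, a glycosyltransferase, and Syngr2, a vesicle protein, had ratios of 7.97, 7.11 and 4.32, and Gcnt2 had too few UMIs without the Siglech cells (21 and 28). St3gal4, a sialyltransferase, the kinase Jak2, the tetraspanin Tspan13 and Smc6, a subunit of a chromosome maintenance complex, had ratios of 4.28, 4.35, 3.77 and 3.72. Il1b was higher at 3.15.

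Genes lower in NEC members included macrophage products. Apoe, the lipid carrier, was at 57.4 against 4308 CPM, a ratio of 0.013 (0.0054 to 0.027). The scavenger receptor Cd36 had 0 UMIs in members and was at least 8.34-fold lower, and Csf1r was 5.42-fold lower. Saa3, Chil3, Serpinb6a, Hp and Folr2 also had 0 UMIs in members and were at least 3.95-fold to 7.22-fold lower. Gngt2, a G protein subunit, and Lst1, a myeloid membrane protein, had 1 UMI each in members. Gngt2 was 29.2-fold lower (5.20 to 1160) and Lst1 26.9-fold lower (4.77 to 1066). Sepp1, selenoprotein P, was 9.11-fold lower. Of 14 macrophage genes compared, 11 were lower, 4 of them Lyz2 and C1q genes that the selection used. Ltc4s, Pf4, Folr2 and the C1q genes had few UMIs left in macrophages with 5 or fewer C1q UMIs, so they could not be compared there. Class II differed little in NEC. Of 10 genes compared 2 were higher, H2-DMb2 (2.59, and 1.99 without the Lyz2-rich cells) and Ifi30 (2.80), with a median log2 ratio of 0.38, and Cd74 was at 13765 against 10400 CPM. NEC B cells held 18518 CPM of Cd74.

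In TEC the same comparison was wider. Of 8082 genes, 300 (3.71%) were higher in members and 1072 (13.3%) lower, and the median gene had a log2 ratio of -0.36. TMM moved this median to -0.05 and the split to 513 and 579. The macrophage group was mixed: 74 of its 555 cells held Rhox5 and 42.7% of its UMIs, and 94 held a Cd3 gene. Without cells that held a UMI of other lineages 368 macrophages remained, and values against these are given as the clean set.

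Class II genes were far above the tumor macrophages. Of 12 compared, 10 were higher, 10 also under TMM, with a median log2 ratio of 2.56. H2-Ab1 was at 10675 CPM in members and 1623 in macrophages, a ratio of 6.58, and H2-Aa, H2-Eb1 and Cd74 had ratios of 5.88, 6.07 and 5.90. H2-Ob, which tunes peptide loading, and H2-DMb2 were higher at 21.9 and 10.2. Against the clean set 7 of 10 were higher with a median of 1.84. Lgmn was lower at 0.24. In TEC T cells H2-Ab1 was at 1309 CPM, near the level in macrophages.

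**Figure D5:**
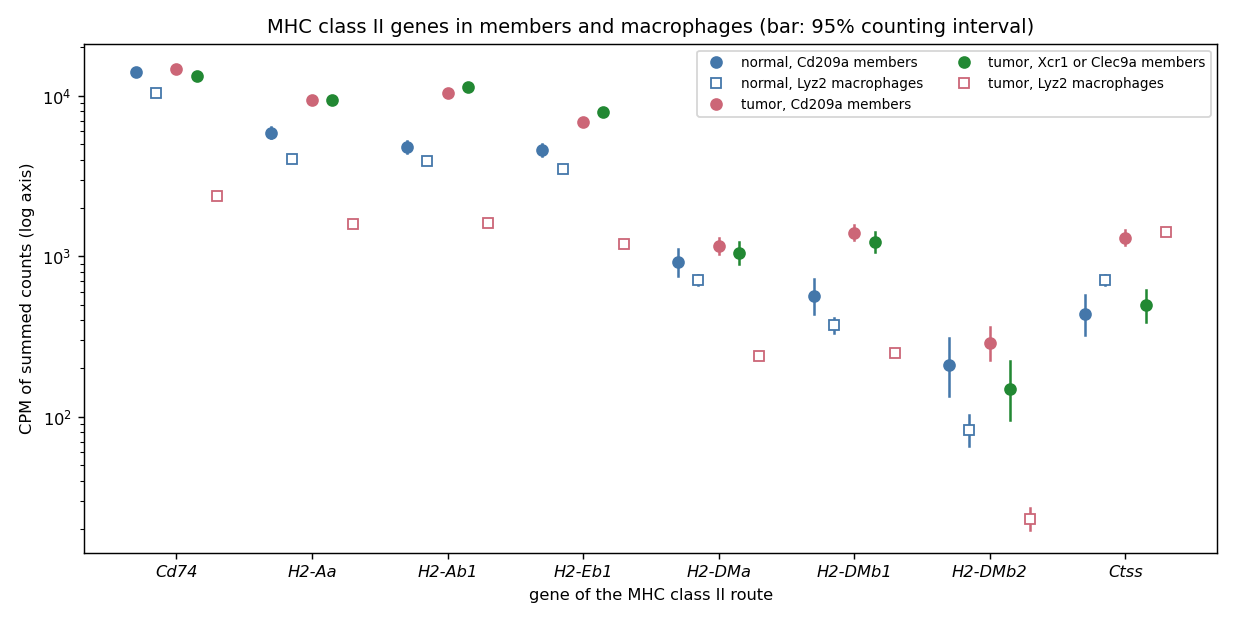
CPM of summed counts (log axis) of 8 genes of the MHC class II route in members (circles) and macrophages (open squares) of each library; bars are 95% counting intervals. Members of both libraries lie above 4000 CPM for Cd74, H2-Aa, H2-Ab1 and H2-Eb1, tumor macrophages below 3000, and Ctss does not follow this order.

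Other genes higher in members included Cd209d, at 254 against 0.948 CPM (ratio 268, 126 to 684), and Clec10a, a galactose lectin, at 136 against 9.07. Ckb, a creatine kinase, was at 405 against 44.8 CPM and Fcgrt, the neonatal Fc receptor, at 201 against 19.8. Il4i1, an amino acid oxidase, Klrd1, Cd7, a surface protein, and Sept6 had ratios of 12.6, 9.44, 13.7 and 10.1. Among these genes only Clec10a and Cd7 are on a dendritic marker list, and Klrd1 is on the T or NK cell list. All 6 conventional dendritic genes compared (Itgax, Dpp4, Cd24a, Cst3, Cd74 and H2-Ab1) were higher, and Itgax did not meet the rule against the clean set (1.58). Of the cDC1 list 7 of 9 were higher and 0 lower, and of the cDC2 list 6 of 15 were higher and 3 lower (Sirpa, Itgam and Clec4a2). Both lists hold rule genes, Xcr1 and Clec9a in the first and Cd209a in the second, whose levels only describe the selection. Ccl17, a T cell chemokine, was at 82.4 against 10.2 CPM, but was found in 6 of 40 members, 1 of which held 47.1% of its UMIs. Costimulation genes were mixed, with Cd83, Cd80, Tnfsf9 and Siglecg higher (3.26, 2.23, 2.98 and 4.82) and Cd274, which encodes PD-L1, lower at 0.46, which TMM ended (0.58). Against the clean set Cd80 had a ratio of 1.38, and Tnfsf9 was too sparse.

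Many chemokine and lipid genes were lower in TEC members than in macrophages. Of 18 chemokines 11 were lower, with a median log2 ratio of -2.30. Ccl2, which draws monocytes, was at 104 against 1458 CPM, 14.0-fold lower (10.4 to 19.4), and Ccl12 was 31.4-fold lower (12.2 to 115). Ccl8, with 2 UMIs in members, was 31.0-fold lower (8.57 to 256), with 50.3% of the macrophage UMIs in 1 cell, and F10, coagulation factor X, and Chil3, a chitinase-like protein, were 19.9-fold and 14.9-fold lower. Of 17 lipid and phagocyte genes 14 were lower and 1 higher (median -2.84), among them Cd63, a tetraspanin (11.4-fold), and Arg1, arginase (43.0-fold, of which 16.8% of the macrophage UMIs lay in 1 cell). Pla2g7, which breaks down platelet-activating factor, Slpi, a protease inhibitor, and Pf4, a platelet chemokine, were 63.1-fold, 26.6-fold and 30.4-fold lower. Interferon genes were lower in 14 of 36 and higher in 1, with a median of -0.89. Against the clean set 22 were lower (-1.54), and under TMM 6 were lower and 2 higher. Of 20 class I genes none met the rule in either direction, and TMM made 3 higher. The genes Nppb and Rhox5, listed for EO771 or other CD45-low cells, were lower. The clean set held 6 UMIs of Nppb, and 0 of Rhox5 because cells with Rhox5 were left out of it.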

How the data were processed

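Single-cell RNA libraries (10x Chromium, 3' ends) of sorted live ZSGreen+ cells were used, 1 for tumors and 1 for normal mammary glands. The deposited table holds raw UMI counts per gene and cell, without normalization. The submitters' processing notes name the build mm10 and the tools Seurat, STAR 2.5.1b and Cell Ranger 2.0.2, with settings not given in the sources used here. Columns headed control were read as the normal library on that word alone. The table lists a gene at 0 for a whole library where it holds no counts there: 12004 of 13774 genes have counts in NEC and 13156 in TEC. How cells and genes were chosen for deposit is not given in the sources used here. All columns were mapped to a library.

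Members were cells that met the rule on deposited counts. The members and gene lists were chosen with earlier results of these data known. UMIs were summed per group and scaled to a total of 1e+06 (CPM). CPM ratios carry exact Clopper-Pearson 95% intervals on the share of a gene's UMIs, which cover counting error only. Genes needed 50 UMIs over both sums. For a gene at 0 the ratio took a floor of 3 counts over the group, and the text gives the interval bound as the least fold. There are no replicates, and no test was made. In each comparison, genes that met the size rule were ranked by the interval bound nearest 1, and the text names genes from the first 12 in each direction, without mitochondrial, ribosomal protein, hemoglobin, immunoglobulin, T-cell receptor and rule genes, and beside these any members of the gene lists. Levels compare groups for 1 gene, not genes with each other.

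Doublets were called with Scrublet in scanpy 1.11.5 at an expected 0.8% per 1000 cells and kept in the main values, and cells needed 500 genes, 1000 UMIs and at most 10% mitochondrial UMIs in that alternative. Scrublet called 7 NEC and 3 TEC cells. Macrophages were non-members with at least 10 Lyz2 UMIs, T cells non-members with at least 2 Cd3 UMIs, and these sets overlap in TEC. Alternatives were TMM scaling (edgeR 4.0.16, R 4.3.3), other gene minimums, cells with Lyz2 under 10 UMIs, without the deepest cell of each group, without members that held Siglech (added after seeing the data), cells of at least 4000 UMIs, and other macrophage sets. Python 3.11.15, numpy 2.4.6, pandas 2.3.3, scipy 1.17.1 and matplotlib 3.10.9 were used. The interval and size rule were run on simulated sums that held counting error only. Variation between cells was not simulated, so this does not show how the rule behaves where 1 cell holds most UMIs. Gene positions are from RefSeq, GRCm38.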

Additional observations from a re-analysis of the deposited data

Results flagged for a closer look

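The ratios of 2 genes between the libraries pointed in opposite directions in Cd209a members and in macrophages. H2-Ab1, a class II chain, had a log2 ratio of TEC over NEC of 1.12 in Cd209a members and -1.27 in macrophages. In macrophages without UMIs of other lineages the CPM ratio of H2-Ab1, not on the log2 scale, was 0.61. It was still lower in TEC but did not meet the size rule. Clec10a, a galactose lectin, had a log2 ratio of 1.04 in Cd209a members and -2.64 in macrophages. The Cd209a ratio of Clec10a had an interval of 1.02 to 4.59, and 1 NEC cell held 60% of the NEC UMIs. With 1 library per group the difference between the cell groups was not tested.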

How the results depend on the processing

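Of the counts of genes and shares of members, 117 alternative values stayed within 1.5 times the main count or the main interval and 23 did not. Of values of single genes, 1369 kept direction and call, 81 lost the call and 13 reversed. Of list medians 660 kept their sign and moved by less than 1.5-fold and 87 did not.

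Without a gene minimum, higher and lower genes numbered 384 and 337 for members of TEC over NEC, 430 and 213 for Cd209a members, and 213 and 398 for Xcr1 or Clec9a over Cd209a members, and 316 genes were higher in NEC members than in macrophages. With a minimum of 20 UMIs these were 384 and 172, 372 and 117, 107 and 292, and 149. These alternatives change how many genes are compared. TMM scaling gave 114 higher genes in Cd209a members, and 513 higher and 579 lower in TEC members against macrophages. In members with Lyz2 under 10 UMIs, 56 genes were lower in TEC than in NEC, and 107 were higher in NEC members than in macrophages. Among cells of at least 4000 UMIs the NEC members against macrophages gave 38 and 151, and the NEC share was 3.75%. Against NEC macrophages with C1q of at most 5 UMIs, 43 genes were higher.

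Reversed log2 ratios of TEC over NEC in members with Lyz2 under 10 UMIs were 3.61 for Cxcl2, 0.020 for Ccl6 and 0.38 for Thbs1. In Cd209a members they were 3.94 for Cxcl2, 0.28 for Thbs1, 0.49 for Ccl6 and 0.55 for Il1rn. Of these values only that of Cxcl2 over all members reaches the 50-UMI minimum, and it does so through the tumor sum. For Xcr1 or Clec9a over Cd209a members Hspa1a turned to -1.92 with Lyz2 under 10 UMIs, and Klf2 and Hspa1a to -0.30 and -2.29 without the deepest cells. Against macrophages Folr2 turned to 2.14 in NEC (C1q of at most 5 UMIs). In TEC, Nppb and Rhox5 turned to 1.89 and 4.12 against macrophages with no UMI of other lineages. That set leaves out cells with Rhox5, so the Rhox5 value follows from the selection and is not a result. Ratios with a group at 0 UMIs are at the floor of 3 counts, and the cause of the other reversals was not tested.

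No paired analysis was possible because each group has 1 library and no result comes from a test. Xcr1 or Clec9a members could not be compared between libraries or within NEC, where there were 0 such cells. The Cd209a comparison rests on 19 NEC cells, under the minimum of 20 planned for it, a choice made after seeing the data. The comparison within the tumor, for which no minimum was planned, rests on 13 Xcr1 or Clec9a cells. At 114860 UMIs in those cells, genes under 50 UMIs over both sums were not compared.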
